A study of Mus musculus with 4 samples.

Results

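The 10 genes described here, of 32286 features counted, were chosen from the readout itself: they were listed because their counts of unique molecular identifiers (UMIs, each tagging a captured RNA molecule) were lower in nuclei of Sel1L Syn-Cre mice in several types of neurons. They are Phldb2, Abi3bp, Gm20752, Gm48530, Fst, Sgpp2, Zbbx, Bace2, Frzb and Wnt9a. Since this contrast chose them, its size in neurons is given as a description, and no p-value of it is printed. Where a gene is said to be called in neurons, or a call to be lost, this too is description, and nothing is read from it. Tests are given for non-neuronal classes, for other genes of the same pathways and for neighbouring genes.

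Single-nucleus RNA was measured in cortex and hippocampus of 5-week-old mice on a C57BL/6J background, with 2 mice of each genotype and 1 library for each mouse. Sel1L flox/flox mice carry floxed alleles of Sel1L, an adaptor of the endoplasmic reticulum-associated degradation complex that removes misfolded proteins, and Sel1L Syn-Cre mice carry the same floxed alleles with Cre driven by the Synapsin I promoter, which is active in postmitotic neurons. Values are given in the order Sel1L flox/flox replicate 1, Sel1L flox/flox replicate 2, Sel1L Syn-Cre replicate 1 and Sel1L Syn-Cre replicate 2. A level in CPM is the UMIs of a gene divided by all UMIs of the same class of nuclei in the same library, and scaled to a total of 1000000.

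The 8 protein-coding genes fall into several roles. Wnt9a encodes a secreted Wnt ligand, and Frzb a secreted protein that binds Wnt ligands and keeps them from their receptors. Fst encodes follistatin, a secreted protein that binds activins, and Abi3bp a protein of the extracellular matrix. Sgpp2 encodes an endoplasmic reticulum phosphatase of sphingosine 1-phosphate, a lipid signal, and Bace2 a membrane-bound aspartyl protease related to the beta-secretase Bace1. Phldb2 encodes LL5-beta, which anchors microtubule ends at the cell cortex, and Zbbx a protein with a B-box zinc finger. Gm20752 and Gm48530 are annotated as long intergenic noncoding RNAs.

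The kept nuclei numbered 6805 to 11116 per library, with 66167019 to 100984599 UMIs and medians of 7244.5 to 8397 UMIs per nucleus. Between 10 and 34 barcodes were shared by a pair of libraries, over 6 pairs. The transgene's own RNA went against one label. Cre gave 370, 0, 212 and 207 UMIs in neuron-like nuclei, so the library labelled Sel1L flox/flox replicate 1 carried Cre RNA. The targeted gene Sel1l was not lower in neuron-like nuclei, at 95, 89.1, 152 and 128 CPM, and a 3′ tag need not lie in the deleted part, so a lower level could not be looked for as a check. In other genes this library lay beside the second Sel1L flox/flox library. Sel1l in Pvalb interneurons was at 93.1, 89.7, 461 and 299 CPM. Derl3, an endoplasmic reticulum-associated degradation gene that endoplasmic reticulum stress induces, was at 0.503, 0.556, 17 and 10.5 CPM in neuron-like nuclei. Results are therefore given for the libraries as labelled. Those that turn on the first library are also given without it, as fold changes or as a call lost. A shift of subtypes within a class and less RNA of a gene per nucleus cannot be told apart in counts summed over a class.

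Neuron-like nuclei fell into 27 clusters, of which 12 were used as populations. Of these 12, 9 were named from markers: L2/3 IT, L4/5 IT and L6 CT cells of the cortex, DG, CA3 and CA1 cells of the hippocampus, and Pvalb, Sst and Vip interneurons. The other 3 met too few markers or led with genes of other types and are called by their leading genes, Il1rapl2/Deptor, Dnah14/Bmpr1b and Egfr/Hapln1. The other 15 clusters, with 6005 of 22736 nuclei and among them L5/6 NP, L5 PT and L6b cells, were unnamed, had names not used here or were further clusters of a name already used, and they entered only the sums over all neuron-like nuclei. Gm48530 was among the 10 leading genes of the L2/3 IT cluster and Gm20752 of the L4/5 IT cluster, so their height in those populations helped to define them.

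Transcription is set in part by the sequence around a gene's start, and 6 of the 10 genes had a promoter in the RefSeq table (GRCm38.p6), which holds 250 bases before to 50 bases after a start. The 5 shown here include those of Phldb2 and Gm20752, which were called lower over all neuron-like nuclei. The others are those of Sgpp2, Wnt9a and Zbbx, which held a motif searched. Capitals mark 4 motifs on either strand. These are the E-box CACGTG, bound by helix-loop-helix proteins, the amino acid response element core TGATGNAA, bound by stress-induced ATF4 and its partners, a box near many starts that reads TATAAA, and the CCAAT box.
Phldb2, chr16:45844329-45844628, - strand: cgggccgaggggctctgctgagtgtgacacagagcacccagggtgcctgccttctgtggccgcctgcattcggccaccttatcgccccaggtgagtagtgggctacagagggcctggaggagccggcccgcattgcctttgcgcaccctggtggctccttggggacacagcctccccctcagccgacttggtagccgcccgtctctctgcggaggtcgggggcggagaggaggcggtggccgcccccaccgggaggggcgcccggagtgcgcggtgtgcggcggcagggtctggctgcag
Gm20752, chr3:159076114-159076413, + strand: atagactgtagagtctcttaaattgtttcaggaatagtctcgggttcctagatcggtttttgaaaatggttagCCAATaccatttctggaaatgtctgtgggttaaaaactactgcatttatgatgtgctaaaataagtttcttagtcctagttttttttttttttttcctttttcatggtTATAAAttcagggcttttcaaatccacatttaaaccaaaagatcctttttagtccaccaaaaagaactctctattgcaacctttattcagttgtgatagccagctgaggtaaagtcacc
Sgpp2, chr1:78310096-78310395, + strand: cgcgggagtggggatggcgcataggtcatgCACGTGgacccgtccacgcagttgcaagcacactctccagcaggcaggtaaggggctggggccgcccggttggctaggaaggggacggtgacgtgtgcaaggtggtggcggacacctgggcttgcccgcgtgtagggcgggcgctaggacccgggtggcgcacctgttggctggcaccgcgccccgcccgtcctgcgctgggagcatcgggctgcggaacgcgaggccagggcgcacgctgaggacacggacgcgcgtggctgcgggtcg
Wnt9a, chr11:59306680-59306979, + strand: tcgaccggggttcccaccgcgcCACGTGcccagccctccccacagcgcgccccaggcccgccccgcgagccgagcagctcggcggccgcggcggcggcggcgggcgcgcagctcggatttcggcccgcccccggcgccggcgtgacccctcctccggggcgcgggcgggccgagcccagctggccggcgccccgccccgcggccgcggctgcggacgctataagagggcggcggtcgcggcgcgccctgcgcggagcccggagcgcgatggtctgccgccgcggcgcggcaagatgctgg
Zbbx, chr3:75143723-75144022, - strand: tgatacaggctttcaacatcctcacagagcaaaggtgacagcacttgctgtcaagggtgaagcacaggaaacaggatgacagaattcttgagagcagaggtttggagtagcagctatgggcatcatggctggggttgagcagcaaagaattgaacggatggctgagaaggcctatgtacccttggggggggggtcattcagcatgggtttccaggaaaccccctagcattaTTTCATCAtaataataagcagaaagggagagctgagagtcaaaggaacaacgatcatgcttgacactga

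The promoters shared little. That of Wnt9a had 83.3% G and C, those of Sgpp2 and Phldb2 72% and 71.7%, that of Zbbx 48.3% and that of Gm20752 34%, against a median of 53% over 32544 promoters. CACGTG was found in Sgpp2, from base -220 of the start, and in Wnt9a, from base -228, and 7.17% of all promoters held it. TGATGNAA was found in Zbbx, from base -19, as in 3.91% of promoters. Gm20752 held TATAAA from base -69 (13.6% of promoters) and CCAAT from base -177 (37.4%). TGACG, a shorter site that is also part of the cAMP and unfolded protein response elements, was found in Sgpp2 only and in 20.9% of promoters. TGACGTCA (cAMP response element, 1.8% of promoters), TGANTCA (AP-1 site, 7.79%) and TGACGTGG (unfolded protein response element, 0.682%) were in none of the 6 windows, nor was the longer endoplasmic reticulum stress element, which 0.12% of promoters held. The window of Phldb2, like that of Frzb, held none of the motifs, and its start lies 109220 bases from the 5′ end of the gene in GENCODE. The start of Zbbx in this table lies 21262 bases from its GENCODE 5′ end.

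Of the 120 pairs of a gene and a population, 66 had enough UMIs to be fitted with edgeR, and 23 passed an adjusted p of 0.05, all 23 lower in Sel1L Syn-Cre. Over all genes in the same 12 populations 0.749% of fits were called lower and 1.76% in either direction. By population the share called lower was 0.15% in L2/3 IT, 0.596% in L4/5 IT, 0.103% in L6 CT, 1.78% in DG, 0% in CA3 (0 genes by edgeR, 465 at an unadjusted p below 0.05, and 1 by DESeq2), 0.0242% in CA1, 1.92% in Pvalb, 3.6% in Sst and 0.0175% in Vip nuclei, and 0.208%, 0.211% and 0.625% in the Il1rapl2/Deptor-led, Dnah14/Bmpr1b-led and Egfr/Hapln1-led populations. Nothing is read from the members' larger share, since the genes were chosen on it. A gene that passed the filter on low counts only through its higher group had to differ. Zbbx in Sst interneurons and Phldb2 and Fst in DG nuclei, with few UMIs in the Sel1L Syn-Cre libraries, were among these. So were Phldb2 in L2/3 IT, L6 CT, Sst and Dnah14/Bmpr1b-led nuclei, Sgpp2 in Sst interneurons, Wnt9a in DG nuclei and Bace2 in L4/5 IT nuclei. The 54 other pairs are not counted as unchanged. The median log2 fold change of the fitted pairs was -0.97, beside 0.0016 for all genes. In all neuron-like nuclei together, all 10 genes were fitted, 2 were called lower, beside 0.0397% of all genes, and 7 had both Sel1L Syn-Cre libraries below both others, beside 15.5%. Of the 10 genes, Phldb2 alone had both Sel1L Syn-Cre libraries below both others in all 12 populations, and Sgpp2 with 8 and Abi3bp with 7 came next, as the plot of levels shows.

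**Figure D1:**
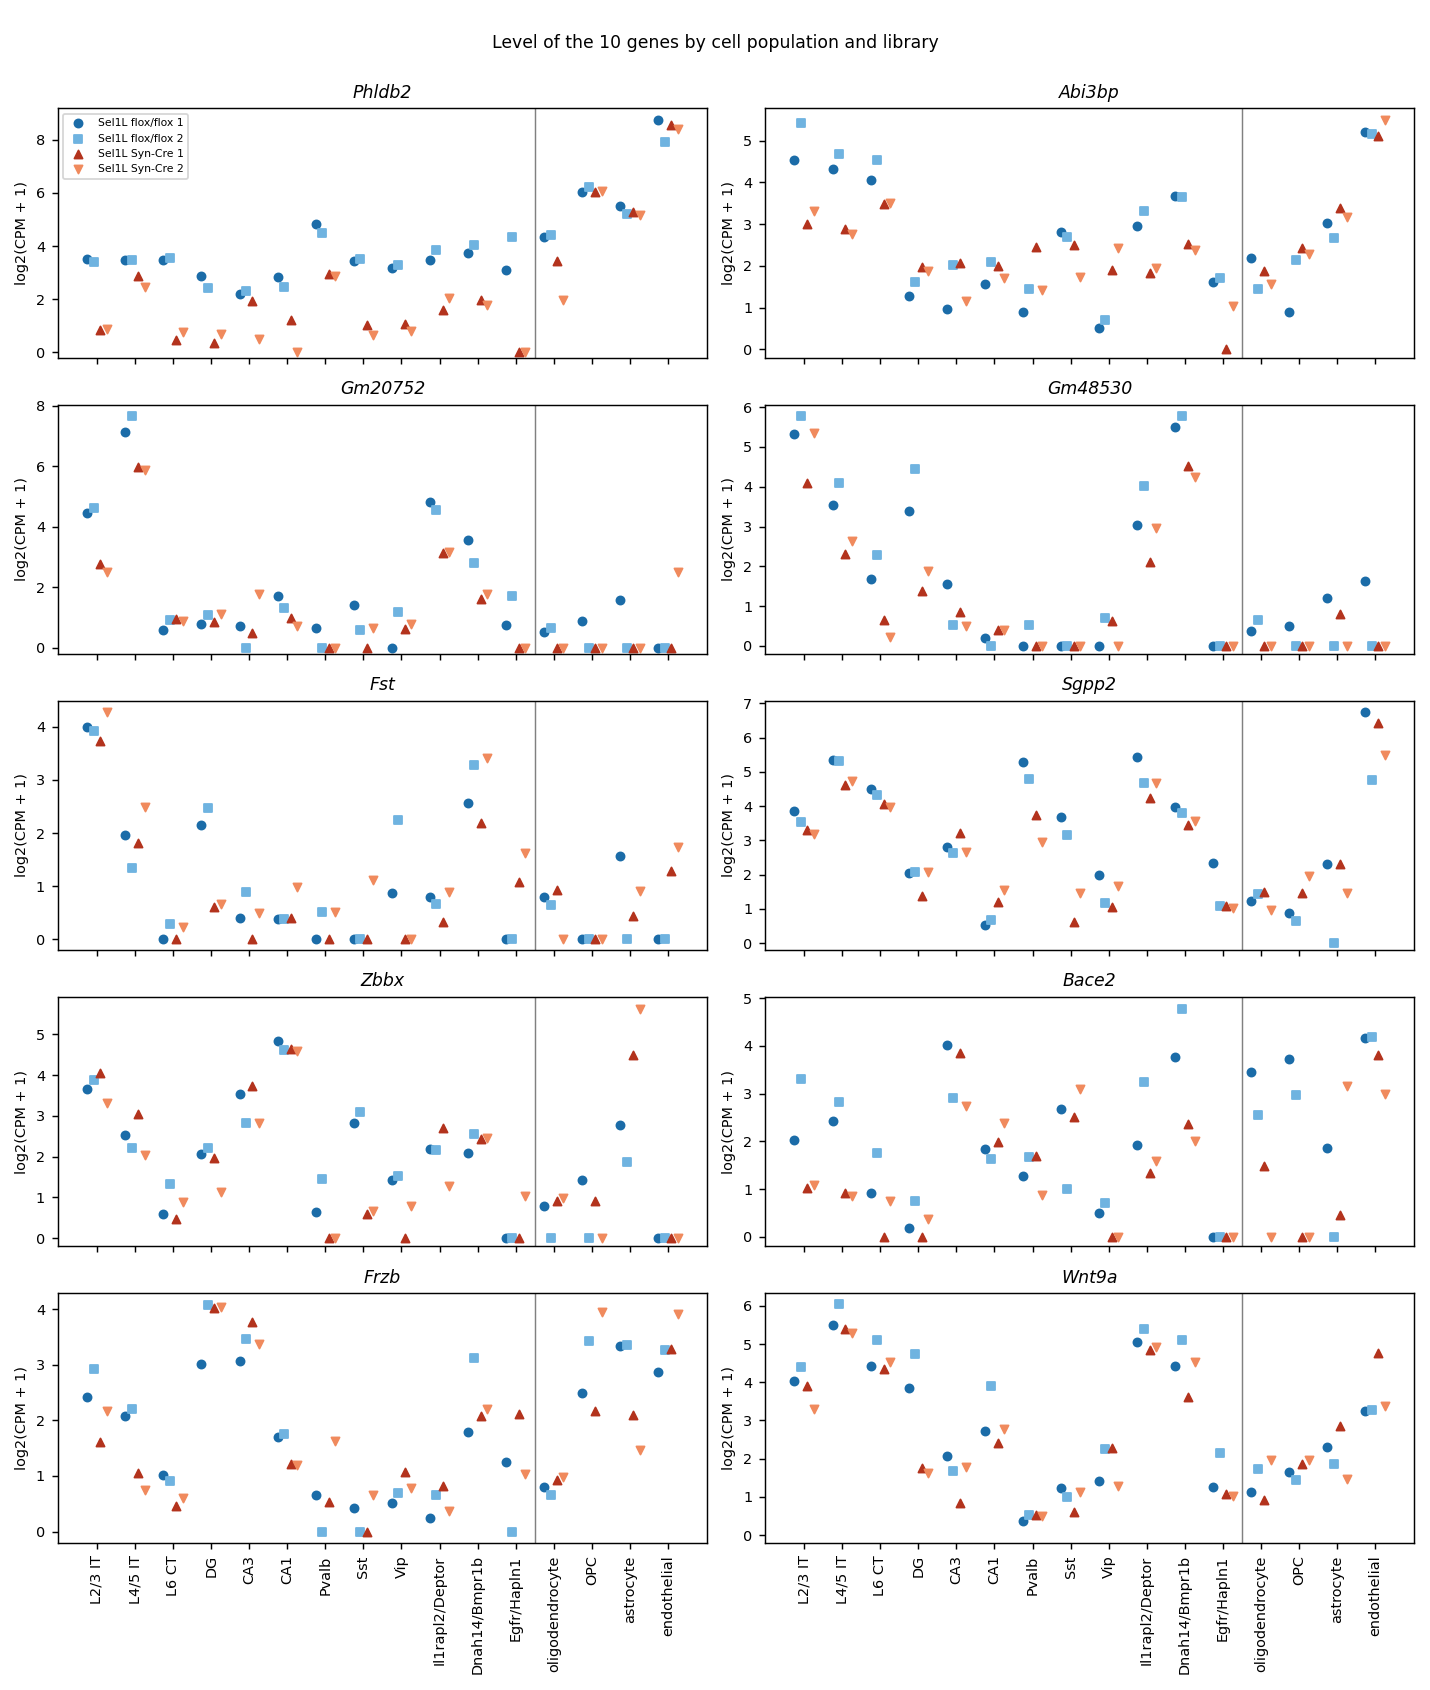
Level of each gene, as log2(CPM + 1), in the 12 neuron populations (left of the grey line) and in oligodendrocyte-like, OPC-like, astrocyte-like and endothelial-like nuclei (right), with 1 point for each library. Phldb2 has both Sel1L Syn-Cre libraries lower in all 12 populations, while Fst, Zbbx and Frzb are lower in some and not in others.

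Phldb2 was lower in each of the 12 neuron populations used. Over all neuron-like nuclei its level was 11.2, 10.8, 2.73 and 2.75 CPM, from 982, 659, 163 and 169 UMIs. The replicates of each group lay close together and the groups did not overlap, with a log2 fold change of -2.06 ± 0.14 (SE, n = 2 per group). In all 12 populations both Sel1L Syn-Cre libraries lay below both Sel1L flox/flox libraries, as 16.2% of all fits did. Of the 10 fitted populations 7 were called. In L2/3 IT, L6 CT, DG, Sst and Dnah14/Bmpr1b-led nuclei Phldb2 passed the filter only through the Sel1L flox/flox libraries, so nothing is read from those calls.

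The log2 fold change of Phldb2 ran from -4.28 to -0.97 over the fitted populations, and whether it varied between them was not tested. Few Sel1L Syn-Cre UMIs stood behind the values in L6 CT (6), L2/3 IT (16) and Sst (3) nuclei. In L6 CT nuclei the level was 10.2, 10.6, 0.382 and 0.683 CPM, a log2 fold change of -4.28 ± 0.41 (SE). In L2/3 IT nuclei it was 10.5, 9.63, 0.802 and 0.846 CPM, with -3.61 ± 0.31. In Pvalb interneurons, where its level was highest among neurons, it was 27.5, 21.7, 6.66 and 6.32 CPM, with -2.0 ± 0.29. The smallest difference was in L4/5 IT nuclei, at 10.2, 10, 6.24 and 4.52 CPM with -0.97 ± 0.26, which was not called. The Sst value was -3.60 ± 0.59 and the DG value -3.67 ± 0.62, from 44, 19, 1 and 2 UMIs. The DG call was lost without Sel1L flox/flox replicate 1, where the fold change was -3.31, and the value was -4.29 without Sel1L Syn-Cre replicate 2. The Dnah14/Bmpr1b-led call was lost, at -1.82, with thinned pseudobulks, in which the summed UMIs of each class and library were drawn down to the smallest such sum. With doublets kept the difference in Sst interneurons was -2.37, in L6 CT nuclei -3.53 and in L2/3 IT nuclei -2.82. In the Egfr/Hapln1-led population the gene gave 11, 17, 0 and 0 UMIs. The Sel1L flox/flox mean of 13.4 CPM was 4.15-fold above the 3.23 CPM that 3 UMIs in each Sel1L Syn-Cre library would give. That ratio leaves out the spread between the Sel1L flox/flox mice.

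The share of nuclei with a Phldb2 UMI was lower too. After thinning to 2000 UMIs per nucleus, 2.26%, 2.26%, 0.451% and 0.457% of neuron-like nuclei held one, which left out 21, 14, 40 and 51 shallower nuclei. Without thinning the shares were 11.5%, 10.7%, 2.41% and 2.41%, at median depths of 9993 to 10702 UMIs. The thinned shares in oligodendrocyte-like nuclei, whose median depths were 2567 to 3268 UMIs, were 3.59%, 3.13%, 1.41% and 0.344%. The neuron share was below the oligodendrocyte share in 3 of the 4 libraries and above it in Sel1L Syn-Cre replicate 2, and free RNA was also judged in a second way, from marker genes.

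Free RNA, released from broken cells and captured with every nucleus, gives UMIs of genes that a nucleus does not express. The most that oligodendrocyte RNA could give was computed from Mbp, Mobp, Mog and Mag: their UMIs in a neuron population, divided by those in oligodendrocyte-like nuclei of the same library, times the UMIs of the gene in those nuclei. Over the 139 values of a gene, a population and a Sel1L flox/flox library with at least 10 UMIs, this ceiling had a median of 0.0858% of the UMIs found and reached 4.14% at most, for Phldb2 in DG nuclei. Phldb2 had a median ceiling of 1.12% and Bace2 of 0.570%, and the medians of the other genes were between 0.0081% and 0.12%. The same ceiling was computed with oligodendrocyte precursor cells (OPC) as the source, from Pdgfra, Cspg4, Lhfpl3 and Matn4. It had a median of 9.52% for Phldb2 and reached 39.4% in Sst interneurons. In the Sel1L flox/flox libraries the OPC markers behind this ceiling summed to 319 and 318 CPM in Sst interneurons. In CA1 nuclei of the same libraries they summed to 24.2 and 22.9 CPM. OPC-like nuclei gave 32, 0, 20 and 12 Cre UMIs, and how much of this ceiling is free RNA was not tested.

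**Figure D2:**
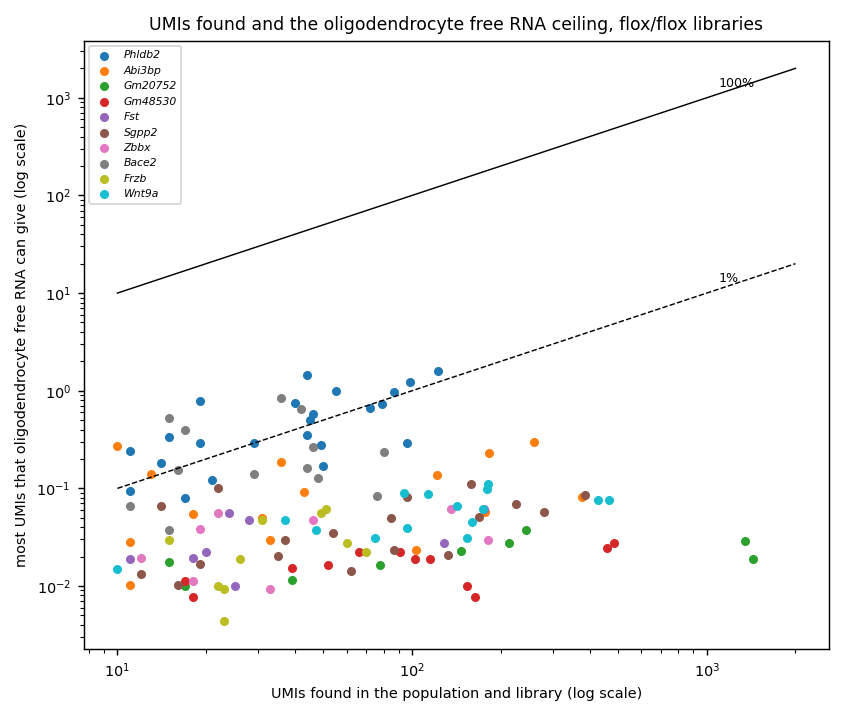
UMIs found for each gene in a neuron population and Sel1L flox/flox library (x axis, log scale) against the most UMIs that oligodendrocyte free RNA could give there (y axis, log scale), where that number is above 0. The solid line marks 100% and the dashed line 1% of the UMIs found; all points lie far below the solid line, with the medians of Phldb2 and Bace2 highest.

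Compared by level alone, 42 of the 120 pairs were above oligodendrocytes in both Sel1L flox/flox libraries, the lower 95% Poisson limit in the population exceeding the upper limit in oligodendrocyte-like nuclei. In 29 of these 42 pairs both Sel1L Syn-Cre libraries lay below both others, and in 0 they lay above, beside 16.2% and 26.6% of all fits. The genes had been chosen as lower and the pairs were kept for high Sel1L flox/flox levels, so nothing is read from that split. Intervals here cover counting error only. Sel1L flox/flox replicate 1, which carried Cre RNA, was below replicate 2 in 27 of the 42. Over all genes fitted it was the lower of the pair for 53.3% to 61.9% of genes, depending on the population. Phldb2 and Bace2 had no population above the oligodendrocyte level by this rule.

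Gm20752 had most of its neuronal UMIs in L4/5 IT nuclei. In L4/5 IT nuclei its level was 139, 199, 61 and 57.9 CPM, from 1343, 1430, 342 and 423 UMIs. The groups did not overlap, and the log2 fold change was -1.55 ± 0.16 (SE, n = 2 per group). In L2/3 IT nuclei it was 20.8, 23.6, 5.73 and 4.61 CPM, with -2.12 ± 0.19, and in the Il1rapl2/Deptor-led population 27.2, 22.6, 7.84 and 8 CPM, with -1.71 ± 0.25. These 3 populations, of 4 fitted, were called, and the L4/5 IT call was lost without Sel1L Syn-Cre replicate 2 and the Il1rapl2/Deptor-led call with thinned pseudobulks, at -1.55. After thinning, 20%, 25.1%, 7.55% and 10% of L4/5 IT nuclei held a Gm20752 UMI, and without thinning 54.4%, 55.8%, 24.8% and 25.7% did. In oligodendrocyte-like nuclei 1 of 1669 thinned nuclei of the first library and 0 in the others held one. The level there was 0.443, 0.575, 0 and 0 CPM.

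Gm48530, the other noncoding RNA, was called in 3 of 6 fitted populations. In DG nuclei it was 9.49, 20.7, 1.59 and 2.67 CPM, a log2 fold change of -2.83 ± 0.46 (SE), and -2.24 without Sel1L flox/flox replicate 2. In the Dnah14/Bmpr1b-led population it was 44.6, 53.8, 22.1 and 17.8 CPM, with -1.32 ± 0.19, and in L4/5 IT nuclei 10.6, 16, 3.93 and 5.2 CPM, with -1.55 ± 0.27, a call lost without either Sel1L Syn-Cre library. The last 2 calls were also lost with thinned pseudobulks. Without Sel1L flox/flox replicate 1 the fold change was -3.38 in L6 CT nuclei and -1.59 in the Il1rapl2/Deptor-led population. The groups overlapped in L2/3 IT nuclei, at 39.2, 53.7, 16 and 39.7 CPM. There the 2 Sel1L Syn-Cre libraries differed from each other more than the group means did.

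Abi3bp, the matrix protein, was lower in excitatory nuclei of the cortex, and its groups overlapped in CA3 and CA1 nuclei. It was 22.2, 41.8, 6.99 and 9.02 CPM in L2/3 IT nuclei, with a log2 fold change of -1.99 ± 0.27 (SE), and 19, 24.7, 6.42 and 5.75 CPM in L4/5 IT nuclei, with -1.88 ± 0.21. Both populations were called, of 7 fitted. The L4/5 IT call was lost without Sel1L Syn-Cre replicate 2, and the L2/3 IT call with thinned pseudobulks, at -2.16, and with doublets kept, at -1.99. In L6 CT nuclei it was 15.6, 22.4, 10.1 and 10.4 CPM and was not called, with -0.92 ± 0.22. Without Sel1L flox/flox replicate 1 the fold change was -1.15 there, -1.73 in the Il1rapl2/Deptor-led population and -1.07 over all neuron-like nuclei. The order turned in DG nuclei, at 1.44, 2.05, 2.91 and 2.67 CPM, where both Sel1L Syn-Cre libraries were above both others at 9 to 11 UMIs each. The difference between these populations was not tested.

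With all 4 libraries, Wnt9a and Fst were called in DG nuclei only, of 7 and 4 populations fitted. Wnt9a was 13.5, 25.7, 2.38 and 2.07 CPM there, from 94, 113, 9 and 7 UMIs, with a log2 fold change of -3.13 ± 0.40 (SE). In L4/5 IT nuclei, where it was highest, Wnt9a was 44.3, 64.9, 40.7 and 38.2 CPM, with -0.50 ± 0.17, and was not called. Without Sel1L flox/flox replicate 1 the fold change of Wnt9a was -0.73 in L4/5 IT nuclei, -0.71 in L6 CT nuclei and -1.50 in CA1 nuclei. It was -1.0 in the Dnah14/Bmpr1b-led population and -0.84 over all neuron-like nuclei. Whether the difference in Wnt9a varied between populations was not tested. Fst in DG nuclei was 3.45, 4.55, 0.529 and 0.592 CPM, from 24, 20, 2 and 2 UMIs, with -2.81 ± 0.60. Its call was lost on leaving out either Sel1L flox/flox library or Sel1L Syn-Cre replicate 1, with fold changes between -3.00 and -2.64. In L2/3 IT nuclei, its highest population, Fst was 15, 14.2, 12.3 and 18.3 CPM and the groups overlapped. Over all neuron-like nuclei its log2 fold change was 0.04 ± 0.28.

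With all 4 libraries, Frzb, the secreted protein that binds Wnt ligands, was called by edgeR in 0 of 5 fitted populations. Of these, 2 were at an unadjusted p below 0.05, and DESeq2 called Frzb in 0 of 4. Without Sel1L flox/flox replicate 1 the log2 fold change in L4/5 IT nuclei was -2.07. In L4/5 IT nuclei it was 3.21, 3.63, 1.07 and 0.685 CPM, with a log2 fold change of -2.02 ± 0.47 (SE), and in L2/3 IT nuclei 4.37, 6.64, 2.06 and 3.48 CPM, with -0.97 ± 0.34. The groups did not overlap in either population. In DG nuclei, where Frzb was highest, it was 7.04, 15.9, 15.3 and 15.4 CPM, and the first library alone was low.

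Sgpp2 was called lower in Pvalb and Sst interneurons and in L4/5 IT nuclei, of 9 populations fitted. Both Sel1L Syn-Cre libraries lay below both others in 8 of 12 populations and above both in 1, beside 16.2% and 26.6% of all fits. The Il1rapl2/Deptor-led population was among the 8 and was not called, with a log2 fold change of -0.74 ± 0.24. In Pvalb interneurons it was 37.8, 26.9, 12.4 and 6.74 CPM, a log2 fold change of -1.85 ± 0.30 (SE). In Sst interneurons it was 11.8, 8.01, 0.522 and 1.75 CPM, with -3.22 ± 0.60. That call was lost without Sel1L flox/flox replicate 1, and the fold change was -2.59 without Sel1L Syn-Cre replicate 1 and -4.21 without Sel1L Syn-Cre replicate 2. In L4/5 IT nuclei Sgpp2 was 39.9, 39.2, 23.4 and 25.6 CPM, with -0.74 ± 0.13, a call lost without either Sel1L Syn-Cre library and with DESeq2. It was 6.07, 5.21, 8.34 and 5.31 CPM in CA3 nuclei, where the groups overlapped.

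Bace2 was lower in the Dnah14/Bmpr1b-led population and in L4/5 IT nuclei. In the Dnah14/Bmpr1b-led population it was 12.6, 26.5, 4.12 and 3.02 CPM, with a log2 fold change of -2.43 ± 0.39 (SE), and in L4/5 IT nuclei 4.35, 6.14, 0.892 and 0.821 CPM, with -2.63 ± 0.43. The L4/5 IT call was lost without either Sel1L Syn-Cre library. In L2/3 IT nuclei it was 3.09, 8.85, 1.03 and 1.13 CPM, with -2.43 ± 0.53, and was not called, although the groups did not overlap. Without Sel1L flox/flox replicate 1 the fold change was -3.00 there and -2.24 in the Il1rapl2/Deptor-led population. In CA3 nuclei Bace2 was 15.3, 6.51, 13.5 and 5.71 CPM, and the groups overlapped. The libraries of both replicates 1 were high there.

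Zbbx was called in Sst interneurons only, and without Sel1L flox/flox replicate 1 its fold change there was -3.67. It was 6.05, 7.51, 0.522 and 0.584 CPM there, from 18, 15, 1 and 1 UMIs, with a log2 fold change of -3.55 ± 0.70 (SE), a call lost without Sel1L Syn-Cre replicate 1. In CA1 nuclei, where Zbbx was highest, it was 27.4, 23.5, 24 and 23 CPM, with -0.18 ± 0.19. The 4 libraries were close together there.

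**Figure D3:**
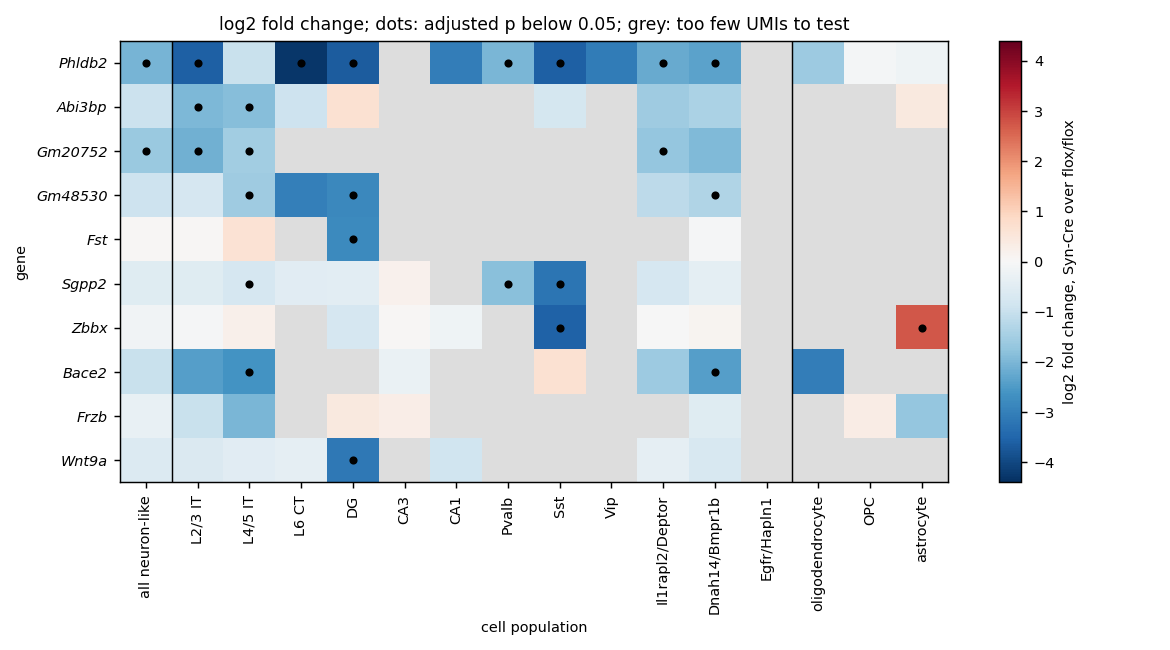
Log2 fold change of Sel1L Syn-Cre over Sel1L flox/flox for each gene (rows) in all neuron-like nuclei, the 12 populations and 3 non-neuronal classes (columns), with black dots where the adjusted p is below 0.05 and grey where a gene was not fitted. Blue fills most fitted cells, from -4.28 for Phldb2 in L6 CT nuclei, and Zbbx in astrocyte-like nuclei is red at 2.74. In the neuron columns the dots only describe the contrast that chose the genes. Nothing is read from the dot of Zbbx in astrocyte-like nuclei, which passed the filter only through its higher group.

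Several of the 10 genes were also lower in populations with few Cre UMIs. L2/3 IT nuclei gave 13, 0, 10 and 7 Cre UMIs and Sel1l was at 95.4, 86, 96.7 and 88.2 CPM, with a log2 fold change of 0.01 ± 0.13 (adjusted p = 0.985 by edgeR), and Phldb2, Abi3bp and Gm20752 were called there. The Dnah14/Bmpr1b-led population gave 1, 0, 1 and 2 Cre UMIs and a Sel1l fold change of -0.14 ± 0.16 (adjusted p = 0.851 by edgeR), and Phldb2, Bace2 and Gm48530 were called in it. Pvalb interneurons gave 103, 0, 67 and 60 Cre UMIs, and there Sel1l was higher by 1.98 ± 0.19 on the log2 scale (adjusted p = 9.24e-05 by edgeR). Sel1l was also higher in DG nuclei, by 1.42 ± 0.13 (adjusted p = 2.5e-05 by edgeR). Few Cre UMIs do not show that a population was spared. Derl3 had both Sel1L Syn-Cre libraries above both others in L2/3 IT nuclei, from 16 UMIs in Sel1L flox/flox and 58 in Sel1L Syn-Cre. It did so in the Dnah14/Bmpr1b-led population, from 2 and 14 UMIs. Of all genes fitted there, 23.6% and 22.1% had that order. The paper reports SEL1L lost in nearly all cells of both CA3 and DG. In CA3 nuclei, which numbered 199, 146, 154 and 147, no gene was called lower. In DG nuclei, which numbered 851, 526, 487 and 425, 1.78% of genes were called lower, and Phldb2, Gm48530, Wnt9a and Fst were among them. The part of Cre or Sel1l in the values of the 10 genes was not tested.

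In the non-neuronal classes, which the choice of genes did not use, 8 of 40 pairs could be fitted and 1 was called, beside 2.79% of all fits in either direction. That share was 8.88% in OPC-like nuclei and 1% in both oligodendrocyte-like and astrocyte-like nuclei. These classes were not all alike between genotypes. Sel1l was higher in OPC-like nuclei, by 1.49 ± 0.21 on the log2 scale (adjusted p = 4.22e-07 by edgeR). It was also higher in oligodendrocyte-like nuclei, by 1.15 ± 0.23 (adjusted p = 0.0482 by edgeR), but not in astrocyte-like nuclei, at 0.05 ± 0.21 (adjusted p = 0.964 by edgeR). Derl3 was called higher in the first 2 classes as well, by 3.73 and 5.75. It passed the filter on low counts in both only through the Sel1L Syn-Cre libraries, so nothing is read from those calls. Phldb2 in OPC-like nuclei was at 64.2, 73.9, 65.3 and 65.6 CPM, with a log2 fold change of -0.08 ± 0.19 (SE, adjusted p = 0.9 by edgeR). In astrocyte-like nuclei it was 44.5, 35.9, 38.3 and 34.5 CPM, with -0.17 ± 0.24 (adjusted p = 0.854 by edgeR). Neither was called, and the groups overlapped in both. Phldb2 in oligodendrocyte-like nuclei was 19, 20.4, 9.86 and 2.91 CPM, from 129, 71, 11 and 3 UMIs, with -1.61 ± 0.42 and an edgeR adjusted p of 0.135. With all 4 libraries that was not a call, and without Sel1L flox/flox replicate 1 the fold change was -1.67. Oligodendrocyte-like nuclei numbered 1847, 1173, 358 and 365, so the Sel1L Syn-Cre values rest on fewer nuclei.

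Bace2 in oligodendrocyte-like nuclei gave 68, 17, 2 and 0 UMIs, with a log2 fold change of -3.04 ± 0.90 (SE, adjusted p = 0.189 by edgeR). Bace2 passed the filter on low counts there only through the Sel1L flox/flox libraries, so nothing is read from this fit. In OPC-like nuclei it gave 29, 12, 0 and 0 UMIs. The Sel1L flox/flox mean of 9.56 CPM was 3.47-fold above the 2.75 CPM that 3 UMIs in each Sel1L Syn-Cre library would give. That ratio leaves out the spread between the Sel1L flox/flox mice. The summed level of 6 oligodendrocyte markers in those OPC-like nuclei was 2232, 1691, 87.1 and 134 CPM, and that of 5 immature oligodendrocyte markers 2648, 2488, 1062 and 1073 CPM. None of these markers was at 0 in either group, and their part in the Bace2 value was not tested.

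Zbbx was the 1 call, and it rose in astrocyte-like nuclei. It gave 9, 2, 59 and 55 UMIs there, at 5.88, 2.66, 21.5 and 48.7 CPM, with a log2 fold change of 2.74 ± 0.53 (SE, adjusted p = 0.0392 by edgeR) and 3.53 without Sel1L flox/flox replicate 1. The call was lost with the replicate number as a block, at 2.63, and with counts thinned to the smallest class and library, at 2.73. Zbbx had passed the filter on low counts there only through the Sel1L Syn-Cre libraries, so nothing is read from the call. The UMIs lay in 5, 2, 27 and 9 nuclei, and 1 nucleus of Sel1L Syn-Cre replicate 2 held 28 of its 55. The summed level of 7 markers of ependymal cells, which carry motile cilia, was 62.8, 89.1, 191 and 472 CPM in the same class, and 0 of the 7 were at 0 in either group. Their part in the Zbbx value was not tested. Frzb in astrocyte-like nuclei was 9.15, 9.31, 3.28 and 1.77 CPM, with -1.70 ± 0.56 (adjusted p = 0.207 by edgeR). Frzb passed the filter there only through the Sel1L flox/flox libraries, so nothing is read from this fit.

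**Figure D4:**
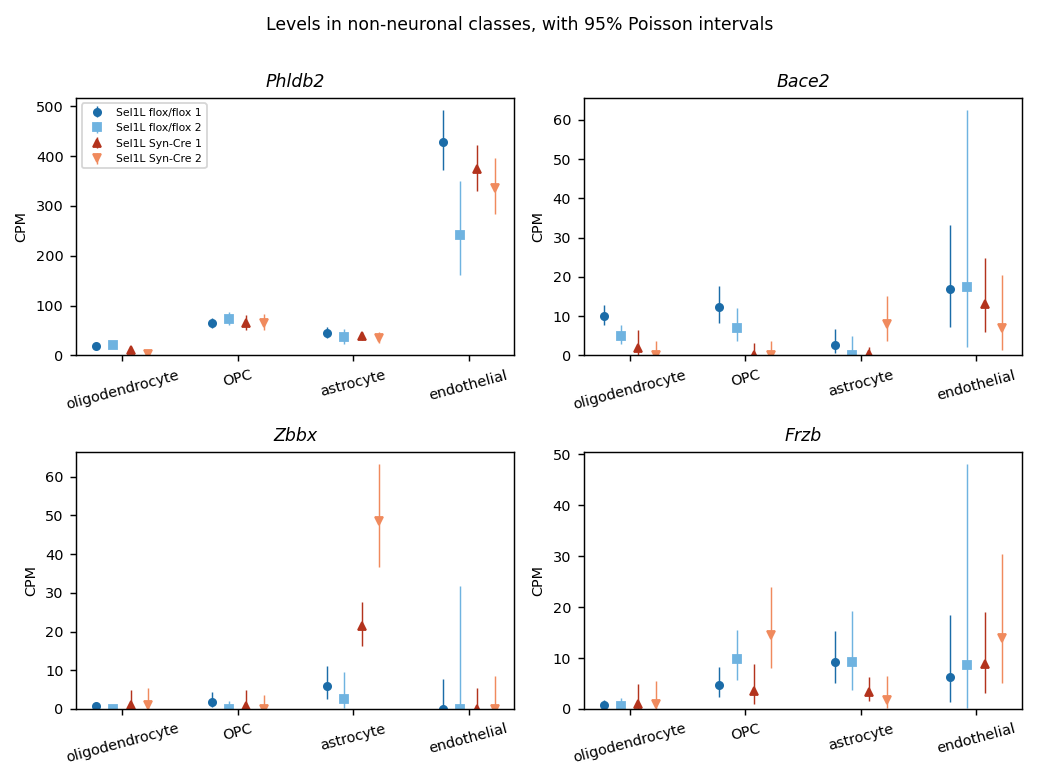
Levels in CPM of Phldb2, Bace2, Zbbx and Frzb in 4 non-neuronal classes, with 1 point for each library and bars for 95% Poisson intervals, which cover counting error only. Phldb2 is alike in the 4 libraries in OPC-like and astrocyte-like nuclei, and Zbbx is higher in both Sel1L Syn-Cre libraries in astrocyte-like nuclei.

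Of the genes next to Phldb2, Plcxd2 moved the other way. Plcxd2, which encodes a protein with a phosphatidylinositol-specific phospholipase C domain, lies on the same strand 5665 bases away, on chromosome 16, and rose over all neuron-like nuclei, at 10.2, 11.1, 20.2 and 21.9 CPM, with a log2 fold change of 0.93 ± 0.10 (SE, adjusted p = 0.027 by edgeR). It rose in Pvalb interneurons, at 5.73, 5.2, 33.3 and 25.3 CPM, with 2.32 ± 0.28 (adjusted p = 0.000484 by edgeR), and in Sst interneurons, at 6.05, 7.01, 38.1 and 29.2 CPM, with 2.29 ± 0.29 (adjusted p = 0.000193 by edgeR). It also rose in L4/5 IT nuclei, by 1.28 ± 0.12 (adjusted p = 0.00217 by edgeR), where Phldb2 was least lower. Its DG call, at 8, 4, 28 and 11 UMIs, was lost without either Sel1L flox/flox library or Sel1L Syn-Cre replicate 1. There Plcxd2 passed the filter on low counts only through the Sel1L Syn-Cre libraries, so nothing is read from the DG call. In OPC-like nuclei Plcxd2 was 23.2, 17.2, 27 and 29.9 CPM, with 0.45 ± 0.29 (adjusted p = 0.46 by edgeR). Abhd10, named for its nearness after its values were seen, lies closer, 3288 bases away on the same strand, and was at 21.2, 24.3, 19.3 and 25 CPM in neuron-like nuclei, with -0.09 ± 0.13 (adjusted p = 0.815 by edgeR). Its groups overlapped in all 12 populations. Gm15638, an antisense gene overlapping Phldb2 by 7993 bases, was 1.45, 1.67, 7.49 and 4.79 CPM in L4/5 IT nuclei, with 1.91 ± 0.39 (adjusted p = 0.0375 by edgeR), a call lost without either Sel1L Syn-Cre library. Whether counting used strand is not stated, so reads of overlapping genes may be shared.

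**Figure D5:**
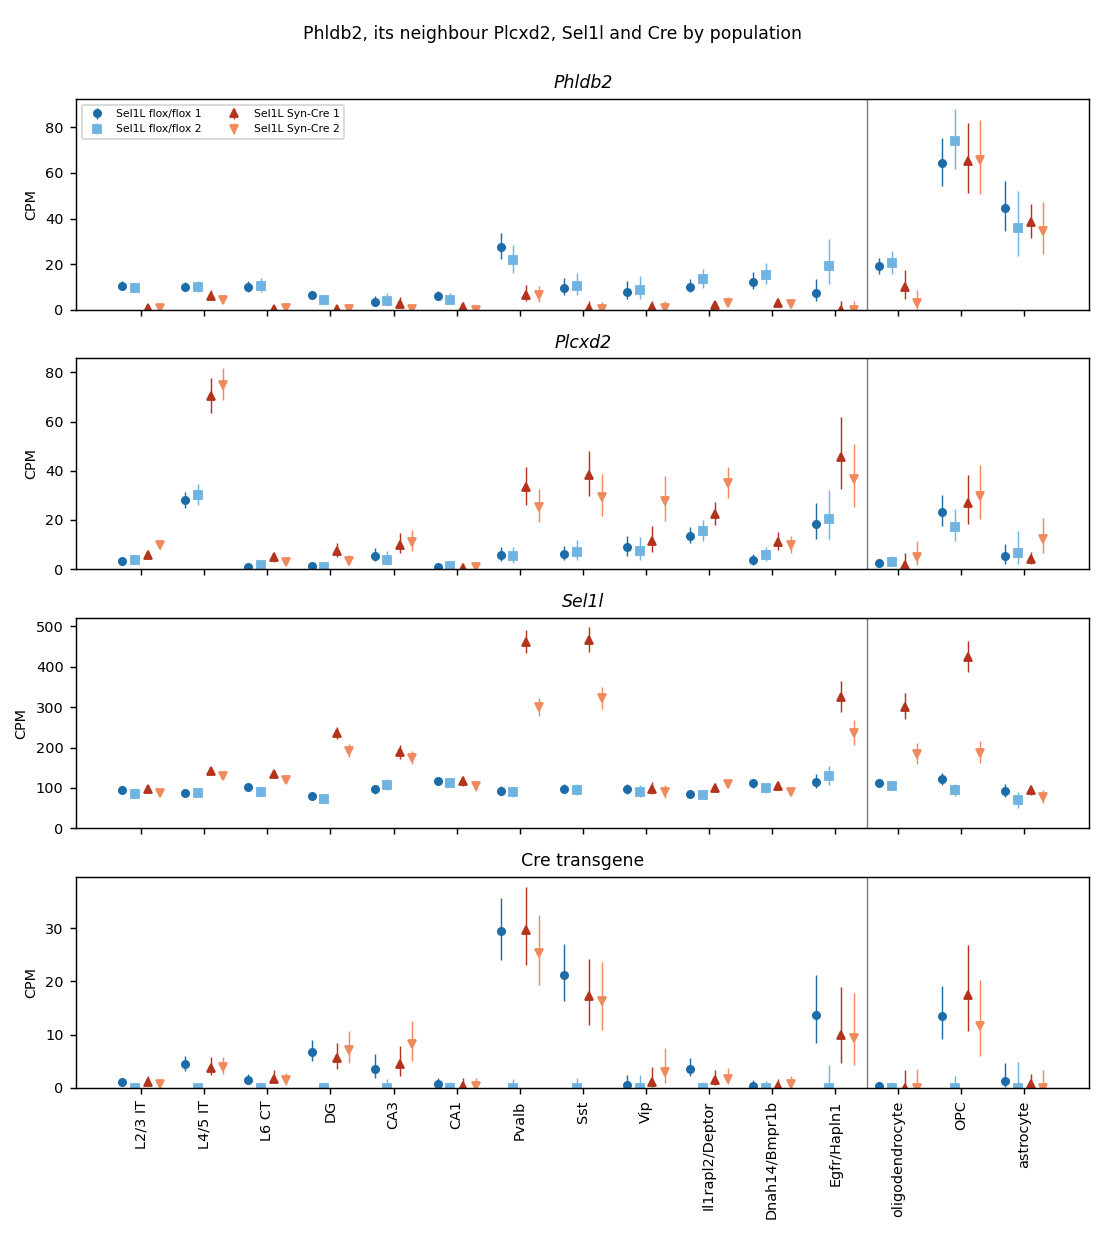
Levels in CPM of Phldb2, Plcxd2, Sel1l and the Cre transgene (top to bottom) by population, with 1 point for each library and bars for 95% Poisson intervals. Phldb2 is lower and Plcxd2 higher in Sel1L Syn-Cre across most neuron populations, and Cre UMIs are seen in Sel1L flox/flox replicate 1 but not in replicate 2.

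Of 25 genes that overlap or neighbour the 10 genes, 13 were fitted, in 121 pairs with a population, of which 6 were higher and 1 was lower, beside 1.76% of all fits in either direction. The other neighbour called was Dscam, a cell adhesion molecule next to Bace2. It fell in Pvalb interneurons by 0.81 ± 0.15 on the log2 scale (adjusted p = 0.00815 by edgeR) and rose in the Egfr/Hapln1-led population by 1.17 ± 0.24 (adjusted p = 0.0241 by edgeR), a call lost without Sel1L Syn-Cre replicate 2 and with DESeq2. Phldb2, Abi3bp and Bace2, 3 of the 10 genes, lie on chromosome 16. The share of all features on that chromosome was not counted, so nothing is read from this.

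Other genes of the same pathways were called about as often as all genes, in 13 of 691 pairs of a gene and a population, or 1.88%, by edgeR, beside 1.76% of all fits in either direction. DESeq2 called 4, with 3 in common, namely Ror1, Fstl5 and Aplp1 in DG nuclei. Of 18 other Wnt ligands, 11 were fitted and 1 pair of 57 was called, Wnt7a in DG nuclei, at 1.15, 0.91, 5.03 and 6.22 CPM, higher by 2.32 ± 0.47 on the log2 scale (adjusted p = 0.012 by edgeR), a call lost without either Sel1L flox/flox library. Wnt7a passed the filter on low counts there only through the Sel1L Syn-Cre libraries, so nothing is read from that call. Of 6 fitted secreted Wnt inhibitors 0 pairs of 19 were called by edgeR, with 1 at an unadjusted p below 0.05 and 0 of 14 called by DESeq2. Of 9 fitted Wnt receptors, Ror1 alone was called: it fell in DG nuclei by 0.79 ± 0.12 (adjusted p = 0.00185 by edgeR) and in the Dnah14/Bmpr1b-led population by 0.90 ± 0.18 (adjusted p = 0.0342 by edgeR), and rose in the Egfr/Hapln1-led population by 1.42 ± 0.31 (adjusted p = 0.0295 by edgeR). The call in the Dnah14/Bmpr1b-led population was lost without either Sel1L Syn-Cre library, and the last without Sel1L Syn-Cre replicate 2, at 0.83. Of 7 fitted Wnt feedback targets Nkd1, an inhibitor of Wnt signalling, was called in Pvalb interneurons, higher by 2.58 ± 0.63 (adjusted p = 0.0366 by edgeR), a call lost on leaving out any 1 library. Nkd1 too passed the filter only through the Sel1L Syn-Cre libraries, so nothing is read from its call.

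Among 17 fitted genes of follistatin and activin signalling, 2 pairs of 176 were higher and 2 lower. Fstl5, a secreted relative of follistatin, rose in DG nuclei by 1.08 ± 0.18 (adjusted p = 0.0046 by edgeR), where Fst was lower, and fell in the Egfr/Hapln1-led population by 0.81 ± 0.17 (adjusted p = 0.022 by edgeR), a call lost without either Sel1L Syn-Cre library. Inhba, an activin subunit, rose in Pvalb interneurons by 1.96 ± 0.45 (adjusted p = 0.0252 by edgeR), and Fstl1 fell in Sst interneurons by 1.21 ± 0.31 (adjusted p = 0.0251 by edgeR). The Inhba call was lost without Sel1L flox/flox replicate 1 or either Sel1L Syn-Cre library, and the Fstl1 call without Sel1L Syn-Cre replicate 2. Inhba had passed the filter on low counts only through the Sel1L Syn-Cre libraries, so nothing is read from its call. For sphingosine phosphate, 1 pair of 82 was lower and 1 higher, both of the transporter Spns2. It fell in Sst interneurons by 0.75 ± 0.20 (adjusted p = 0.0356 by edgeR), where Sgpp2 was lower too, a call lost without Sel1L flox/flox replicate 1 or either Sel1L Syn-Cre library. It rose in the Dnah14/Bmpr1b-led population by 0.84 ± 0.18 (adjusted p = 0.0497 by edgeR), a call lost without Sel1L Syn-Cre replicate 1 and with RLE size factors. Among secretases and APP family genes 1 pair of 144 was lower, Aplp1 in DG nuclei by 0.60 ± 0.12 (adjusted p = 0.0118 by edgeR), lost without Sel1L flox/flox replicate 1. Of 10 fitted genes of the cortical complex that holds LL5-beta, 1 pair of 118 was lower, Ppfibp1 in the Dnah14/Bmpr1b-led population by 1.20 ± 0.23 (adjusted p = 0.0342 by edgeR), lost without Sel1L Syn-Cre replicate 1. The closest relatives Bace1, Sgpp1 and Phldb1 were called in 0 of their 36 pairs with the 12 populations by edgeR, with 3 at an unadjusted p below 0.05 and 0 of 29 called by DESeq2. In L4/5 IT nuclei, where Bace2 and Sgpp2 were called, Bace1 had -0.05 ± 0.18 (adjusted p = 0.925 by edgeR) and Sgpp1 0.08 ± 0.23 (adjusted p = 0.92 by edgeR), and Phldb1 in L6 CT nuclei had -0.39 ± 0.28 (adjusted p = 0.645 by edgeR). Wnt9b was not fitted.

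Across 68 pseudobulks, the 12 populations and 5 other classes in 4 libraries, the genes with the pattern most like each of the 10 were found by Pearson correlation of log2(CPM + 1). The points share libraries and the correlations are descriptions. Gm20752 was most like Gm40331 (r = 0.90) and Gm42953 (0.86). Gm48530 was most like Mei1 (0.85), as was Wnt9a (0.81), and Fst was most like Gm48530 (0.78). Phldb2 was most like Syne2 (0.79) and Synm (0.77), Abi3bp like Crip2 (0.76), Sgpp2 like Cckbr (0.76), Zbbx like Gm13481 and Cfap44 (0.76 each), Frzb like Cyp7b1 (0.73) and Bace2 like Bicc1 (0.64).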

How the data were processed

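Per the labels and the study's methods, nuclei were sorted and sequenced with the 10x 3′ v3 chemistry, and the submitters' processing notes name Cell Ranger 6.1.0 and GRCm38. The authors deposited raw UMI counts, not normalized. Whether introns or strand were used in counting is not given in the sources used here. The 10 genes and the gene lists were chosen with earlier results of these data known.

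Nuclei with 600 genes or fewer, or 5% or more mitochondrial UMIs, were left out, as were Scrublet doublets at an expected 5.89% to 10.1%, in proportion to barcodes. Libraries were integrated in Seurat 5.3.0 with 2000 features and 17 dimensions. Clusters were cut at resolution 0.2, and within neurons at 0.4, and a name needed at least 3 markers. The plan foresaw 11 populations, and 12 were used. UMIs summed by class and library were tested with edgeR 4.0.16 (TMM, filterByExpr, quasi-likelihood, two-sided, Benjamini-Hochberg over all genes of a class, prior count 0.125). With 2 mice a group, p-values rest on a spread between mice that edgeR draws for each gene toward a trend over all genes. Each SE is the fold change over the square root of its F. The script was tested on simulated data. Positions are from GENCODE vM21, in which 32158 of 32286 features were found.

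Genes named are all 10, plus, per list, at most 3 with the most populations called (adjusted p below 0.05), the relatives Bace1, Sgpp1, Phldb1 and Wnt9b, and for likeness the 2 most correlated genes with at least 500 UMIs. Ependymal markers were added after the data were seen, and sums of oligodendrocyte markers leave out 1 planned marker that is not reported here. The alternatives were DESeq2 1.42.0, RLE size factors, no filter, a replicate block, thinned pseudobulks, doublets kept and each library left out.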

Additional observations from a re-analysis of the deposited data

Results flagged for a closer look

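Cre, a transgene that no comparison here uses as an outcome, gave 370 UMIs in neuron-like nuclei of the library labelled Sel1L flox/flox replicate 1. It was flagged because a transgene absent from the genotype named on the label gave a signal, while the other library with that label gave 0. The libraries labelled Sel1L Syn-Cre gave 212 and 207. In that first library Phldb2 was at 11.2 CPM and Gm20752 at 21.9 CPM in neuron-like nuclei, both above the Sel1L Syn-Cre libraries.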

How the results depend on the processing

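No call changed direction under any alternative run. Members called in all neuron-like nuclei numbered 2, against 5 with DESeq2 and 3 to 4 with a library left out; in the 12 populations 23, against 40 without the filter, 7 with thinned pseudobulks and 19 to 32 with a library left out; in non-neuronal classes 1, against 4 without the filter, 0 with thinned pseudobulks and 2 to 4 with a library left out. Pathway genes called numbered 13, against 4 with DESeq2, 32 without the filter and 2 with thinned pseudobulks, and neighbouring genes 7, against 12 without the filter. With fewer UMIs or other genes tested by construction, the cause was otherwise not tested. Over all genes in neuron-like nuclei, 35 of 20151 were called, against 452 of 17025 with DESeq2 and 301 of 27248 without the filter. Calls over all genes there also rose with each library left out. Without the filter they rose in each population but CA3 and in each non-neuronal class. Nothing is therefore read from the rises among the members. A left-out library leaves 1 mouse in its group, which is assumed to vary like the others.

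The replicate numbers pair no samples by label, and the deviations of the replicates 1 of both groups had r = 0.31 over 10377 genes. With the replicate block the calls were 4 in all neuron-like nuclei, 31 in the populations, 2 in non-neuronal classes, 23 for pathway genes and 11 for neighbouring genes. Over all genes in neuron-like nuclei the block gave 235 calls, beside 35 without it, so nothing is read from the rise. The Zbbx call in astrocyte-like nuclei was lost with it, at 2.63.

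The median free RNA ceiling was 0.0858%, against 0.0315% with Mag and Mog alone, and, chosen after seeing the data, 0.0337% with endothelial-like and 0.188% with OPC-like nuclei as the source. The difference in the share of neuron-like nuclei with a Phldb2 UMI was -1.81 percentage points, -3.29 at 4000 UMIs and -8.64 without thinning.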

Other observations

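In the unnamed Igfbpl1/2610307P16Rik-led cluster, a shallow cluster outside every comparison, Sgpp2 gave 7, 4, 65 and 4 UMIs, at 9.31, 14.9, 77.7 and 10.8 CPM, so that Sel1L Syn-Cre replicate 1 alone was high. In endothelial-like nuclei, which were not fitted, Phldb2 was at 429, 242, 374 and 336 CPM, above its level in each of the 12 neuron populations used, and the groups overlapped. Sgpp2 there was at 106, 25.9, 84.5 and 44.4 CPM from 50, 3, 58 and 19 UMIs.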
